A study of Mus musculus with 2 samples.

Results

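Son-negative and Son-high cells were compared within each of 2 libraries of mouse embryonic stem cells, 1 from cells given siRNA against Son (called sonKD) and 1 from cells given a control siRNA (called control). A barcode counted as a cell from 10000 UMIs and 1000 genes upward, if mitochondrial UMIs made up 10% or less. A UMI (unique molecular identifier) marks 1 captured transcript molecule. From every cell 10000 UMIs were drawn at random, so that no cell had a higher Son count only through its depth. A cell with 0 Son UMIs after thinning is called Son-negative and a cell with 3 or more is called Son-high. Of 2873 cells, 1520 fell into these classes. In sonKD 838 cells were Son-negative and 219 were Son-high, with 827 cells of 1 or 2 Son UMIs between them, out of 1884. In control 201 cells were Son-negative and 262 were Son-high, with 526 between them, out of 989.

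Both libraries came from E14 cells of a 129/Ola background, an established line grown in serum with leukaemia inhibitory factor. Each siRNA was delivered with Lipofectamine 24 h after seeding, and the cells were taken 24 h after that. Before capture with 10x Genomics 3' v3 chemistry they had been frozen, thawed and sorted to leave out cells stained by 7-AAD, a dye that enters dead cells. There was 1 library per siRNA, so a difference between the libraries and an effect of the Son siRNA cannot be told apart, and cells of 1 library are not replicates. No p-value is therefore given, and all intervals are at 95% and cover counting error only.

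Son is a large nuclear protein with long repeats and an RS domain. It sits in nuclear speckles, bodies rich in splicing factors, where it serves with Srrm2 as a scaffold, and it is known for helping the splicing of transcripts with weak splice sites or short introns. An siRNA acts through the degradation of its target transcript. The comparison asks which transcripts differed between cells with little and with much Son RNA in the same knockdown culture. The control library shows what goes with a low or a high Son count where no siRNA against Son was given.

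Son (ENSMUSG00000022961) lies on chromosome 16 from 91647506 to 91679221 on the plus strand, with 12 exons in its longest coding transcript, in GENCODE M21 on GRCm38. Over all kept cells its level in CPM, the UMIs of a gene per 1000000 UMIs, was 104 in sonKD (100 to 108). In control it was 174 CPM (166 to 181). The raw depth of the kept cells had a median of 12825.5 UMIs in sonKD and 11767 in control, and no barcode was shared between the libraries. Barcodes with 100 to 500 UMIs, which hold mostly free RNA, had Son at 27.9 CPM (25.5 to 30.4) in sonKD and 77.1 (73.2 to 81.2) in control. A Son UMI in a cell can come from such RNA, so a Son-high cell need not have made every Son molecule counted in it. The stem cell markers Pou5f1, Sox2, Nanog, Zfp42, Esrrb and Dppa5a were all present in the Son-negative and Son-high cells of both libraries, with Pou5f1 between 919.6 and 1129 CPM and Dppa5a between 4515 and 6214.

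The spread of Son over cells was wider in sonKD than single-rate counting gives. The variance of the Son count was 1.57 times its mean in sonKD and 1.21 times in control, where a Poisson count has 1. The share of Son-negative cells was 44.5% in sonKD (exact binomial interval 42.2 to 46.8), and a Poisson count of the same mean gives 36.1%. Son-high cells made up 11.6% (10.2 to 13.2), which is 219 cells where the Poisson count gives 158. At the upper end, 44 sonKD cells had 5 or more Son UMIs where the Poisson count gives 7.50 cells. In control the shares lay nearer to their Poisson values, 20.3% (17.9 to 23.0) beside 17.3% for Son-negative and 26.5% (23.8 to 29.4) beside 25.8% for Son-high cells. These shares come from the counts that chose the classes and are a description.

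The UMIs left out by the thinning were not used to choose the classes and give a second reading of Son in the same cells. A cell gave all its UMIs beyond 10000, so deeper cells weigh more in every held-out value. Only 456 of 1884 sonKD cells and 192 of 989 control cells had 15000 UMIs or more. In sonKD the held-out Son level was 73.9 CPM in Son-negative cells (64.5 to 84.4), 109 in cells with 1 Son UMI (95.1 to 124), 135 in cells with 2 (114 to 160) and 193 in Son-high cells (166 to 224). Son-negative sonKD cells thus held 38.2% of the Son of Son-high cells (31.2 to 46.8), a log2 ratio of -1.39 (-1.68 to -1.09). In control the same levels were 141 (112 to 176), 150 (126 to 178), 175 (144 to 210) and 196 CPM (167 to 230), and the log2 ratio was -0.48 (-0.88 to -0.08). The classes therefore stood further apart in Son in sonKD than in control, and the intervals of the ratios did not overlap. The gap was narrower or turned round under 2 alternatives. The control ratio was -1.13 when the classes were made equal over tertiles of raw depth, and with 15000 UMIs as the cell minimum and the thinning depth the ratios were -0.92 in sonKD and -1.11 in control, with 17 Son-negative control cells. A second random draw gave -0.17 in control. Cells just inside the Son-high class, with exactly 3 Son UMIs, had 176 CPM in sonKD and 189 in control, against 135 and 175 just outside it.

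Son-high cells of the 2 libraries had like held-out Son levels, sonKD being at 98.5% of control (79.0 to 123). Son-negative sonKD cells were at 52.3% of Son-negative control cells (40.4 to 68.4). Cells with 1 and with 2 Son UMIs lay between, at 72.3% (58.2 to 90.1) and 77.5% (60.3 to 99.9).

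**Figure D1:**
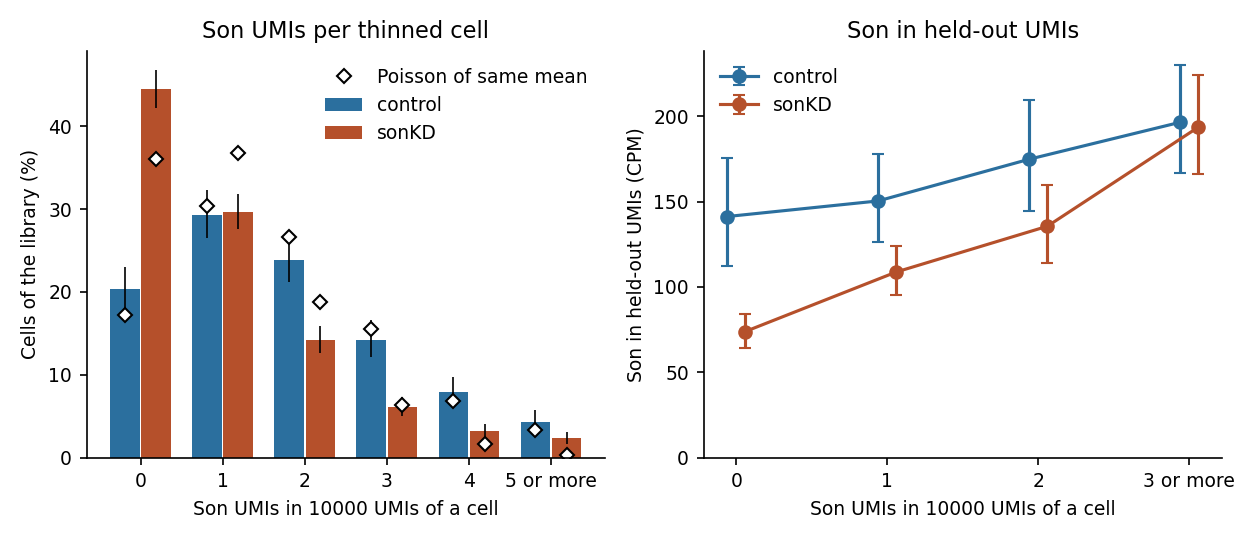
Left, share of cells of each library (in percent, bars, with exact 95% binomial intervals) by Son UMIs in 10000 UMIs of a cell, with the share of a Poisson count of the same mean as diamonds. Right, Son in the UMIs left out by thinning (CPM, with exact 95% Poisson intervals) by Son class, where sonKD goes from 73.9 to 193 CPM and control from 141 to 196 CPM.

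Other features of the cells moved with the Son count in both libraries, and their part in the results that follow was not tested except where a value is given. The median raw depth was 12607 UMIs in Son-negative and 13096 in Son-high cells of sonKD, and 11517 and 11918.5 in control. At equal depth, Son-negative cells showed fewer genes, with medians of 3230.5 and 3327 in sonKD and 3435 and 3611 in control. The share of UMIs from ribosomal protein genes was higher in Son-negative cells, with medians of 24.1% and 23.1% in sonKD and 20.1% and 18.3% in control. Malat1, a nuclear RNA of speckles, had a median of 14 UMIs in Son-negative and 22 in Son-high sonKD cells, and of 19 and 32 in control. Mitochondrial shares were close, with medians of 3.89% and 3.71% in sonKD and 3.40% and 3.39% in control. Genes of the S phase list gave medians of 63 and 65 UMIs in sonKD and 68 and 68 in control, and genes of the G2/M list 75 and 78 in sonKD and 89 and 94.5 in control.

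Counts were then summed over the thinned cells of a class, and the log2 ratio of Son-negative over Son-high cells was taken for the 3280 genes whose class sums averaged 50 CPM or more, Son left out. A positive ratio is a higher level in Son-negative cells. A sum over a class does not show whether fewer cells held a transcript or each cell held less of it. In sonKD, 56 genes were lower in Son-negative cells by at least 0.5 on the log2 scale (1.71% of the genes measured) and 11 were higher (0.335%), 2.04% together. In control, 74 were lower (2.26%) and 10 were higher (0.305%), 2.56% together. The shares were thus of like size in the 2 libraries. Srgap2 and Nfib were among the lower genes of both, which is 3.57% of the sonKD genes, close to the 2.26% of all genes that were lower in control, and 2.70% of the control genes. No higher gene was shared. Across the 3280 genes, which share libraries and cells and are not independent, the ratios of the libraries went together with a Pearson coefficient of 0.33 and a Spearman coefficient of 0.39. With TMM factors from edgeR in place of plain CPM, the split became 23 lower and 30 higher in sonKD and 32 lower and 24 higher in control. That scaling moved the median of all genes from -0.03 to 0.08 in sonKD and from -0.04 to 0.04 in control.

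The most extreme ratios were those of sonKD. The ratios there reached -1.41 at the low end and 0.96 at the high end, against -0.89 and 0.74 in control. The median interval was 0.44 wide in sonKD and 0.53 in control, so the reading of single genes was the more exact in sonKD. The whole interval lay below -0.5 for 13 genes in sonKD (0.396%) and for 1 gene in control, Robo1 (0.0305%). It lay above 0.5 for 2 genes in sonKD, Cbr3 and Neat1 (0.061%), and for 0 in control. Among the 13 were Cox6b2, Bud23, Rnaseh2c, Isyna1, Tk1, Vars, Idh2, Prex2, Mrpl53, Ergic3, Snx5 and Nop56. Ergic3, Prex2 and Nop56 were named after their values were seen. In the held-out UMIs of the same cells Prex2 was at 0.06, so its low ratio was not seen there.

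**Figure D2:**
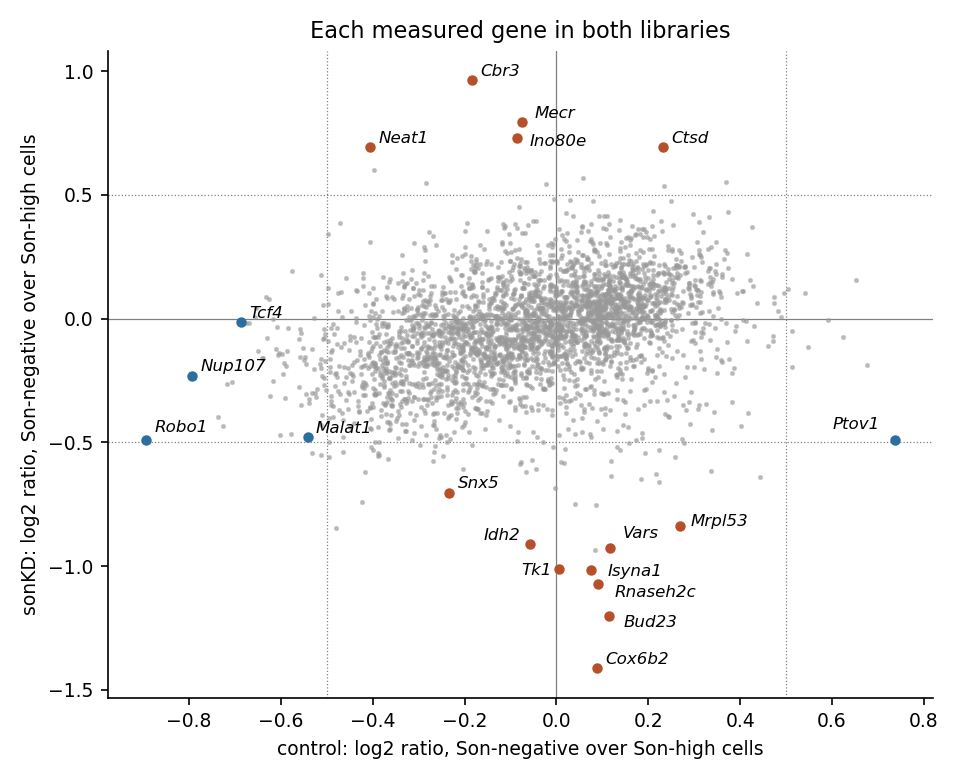
Log2 ratio of Son-negative over Son-high cells for each of 3280 genes, control on the horizontal axis and sonKD on the vertical axis, with dotted lines at 0.5 and -0.5. Labelled genes have the larger ratio in sonKD (orange) or in control (blue), and Cox6b2 at -1.41 in sonKD lies at 0.09 in control.

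Cox6b2, a subunit of cytochrome c oxidase best known from testis, had the lowest ratio. The gene lies on chromosome 7 from 4751792 to 4753094 on the minus strand and has 3 exons. In sonKD its level was 25.5 CPM in Son-negative cells, 45.4 with 1 Son UMI, 58.6 with 2 and 68.0 in Son-high cells. In control the levels were 57.2, 57.9, 49.6 and 53.8 CPM and showed no order. The log2 ratio of sonKD was -1.41 (-1.72 to -1.10), and that of control was 0.09 (-0.28 to 0.45). In the held-out UMIs the sonKD ratio was -1.66 (-2.14 to -1.17). With 15000 UMIs as the cell minimum and the thinning depth, the ratios were -1.11 in sonKD and -1.10 in control. The libraries did not differ in Cox6b2 there, with 17 Son-negative control cells.

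Bud23, a methyltransferase that modifies the RNA of the small ribosomal subunit, lies on chromosome 5 from 135052957 to 135064959 on the minus strand. Its sonKD levels were 31.1, 43.1, 48.1 and 71.7 CPM from Son-negative to Son-high cells, and its control levels were 78.1, 84.1, 72.9 and 72.1 CPM. Son-high sonKD cells were near the control levels, and the other sonKD classes were below every control class. The ratio was -1.20 (-1.49 to -0.91) in sonKD, -1.12 (-1.58 to -0.64) in its held-out UMIs, and 0.11 (-0.20 to 0.43) in control.

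Rnaseh2c and Rnaseh2a encode subunits of RNase H2, which removes RNA joined to DNA. Rnaseh2c, on chromosome 19 from 5601873 to 5607019 on the plus strand, had 58.1, 76.6, 104 and 122 CPM over the 4 classes of sonKD and 135, 136, 131 and 127 CPM in control. Its ratio was -1.07 (-1.29 to -0.85) in sonKD and 0.09 (-0.15 to 0.33) in control. Rnaseh2a, named after its values were seen, had ratios of -0.64 in sonKD and 0.44 in control.

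Among enzymes of metabolism, Isyna1 makes inositol phosphate from glucose phosphate, Idh2 is the mitochondrial isocitrate dehydrogenase that yields NADPH, and Tk1 phosphorylates thymidine in dividing cells. Isyna1 was at 58.2, 81.9, 92.2 and 118 CPM over the sonKD classes and between 116.5 and 126 CPM in control. Idh2 was at 47.1, 55.3, 85.1 and 88.6 CPM in sonKD and between 111 and 116 CPM in control. Their sonKD ratios were -1.02 (-1.24 to -0.79) and -0.91 (-1.16 to -0.65), and their control ratios were 0.08 and -0.06. Tk1 was at 28.8 CPM in Son-negative cells, 36.3 with 1 Son UMI and 58.0 in Son-high cells of sonKD, a ratio of -1.01 (-1.33 to -0.69), with a control ratio of 0.00. The held-out ratio of Tk1 was only -0.35 (-0.89 to 0.21), a wider gap between the 2 readings than for the other 9 of the 10 genes with the lowest intervals.

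Vars, the valyl tRNA synthetase, was at 57.6, 65.5, 101 and 110 CPM in sonKD and between 139 and 158 CPM in control. Its Son-high sonKD cells thus stayed below every control class. The ratio was -0.93 (-1.15 to -0.70) in sonKD and 0.12 (-0.11 to 0.34) in control. Vars and Idh2 had been picked out on these samples as genes of large library difference, so their place here is not independent of that choice.

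Snx5, a sorting nexin of endosomes, was at 160 CPM in Son-negative and 261 in Son-high sonKD cells, a ratio of -0.70 (-0.85 to -0.56). It was also lower in Son-negative cells of control, by a ratio of -0.23 (-0.39 to -0.08). Mrpl53, a protein of the mitochondrial ribosome, had a ratio of -0.84 (-1.09 to -0.58) in sonKD and 0.27 (-0.06 to 0.60) in control. Its value is uncertain, because its 3' end is shared in full with the overlapping gene model Gm42688.

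All 10 genes with the lowest intervals had levels in order over the 4 sonKD classes, lowest with 0 and highest with 3 or more Son UMIs, and 13.4% of all measured genes had that order. The choice of the genes fixed which end was low, so nothing is read from this count beside that share, and only the place of the cells with 1 and 2 Son UMIs was not fixed by it. In control only Snx5 of the 10 had its levels in that order.

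**Figure D3:**
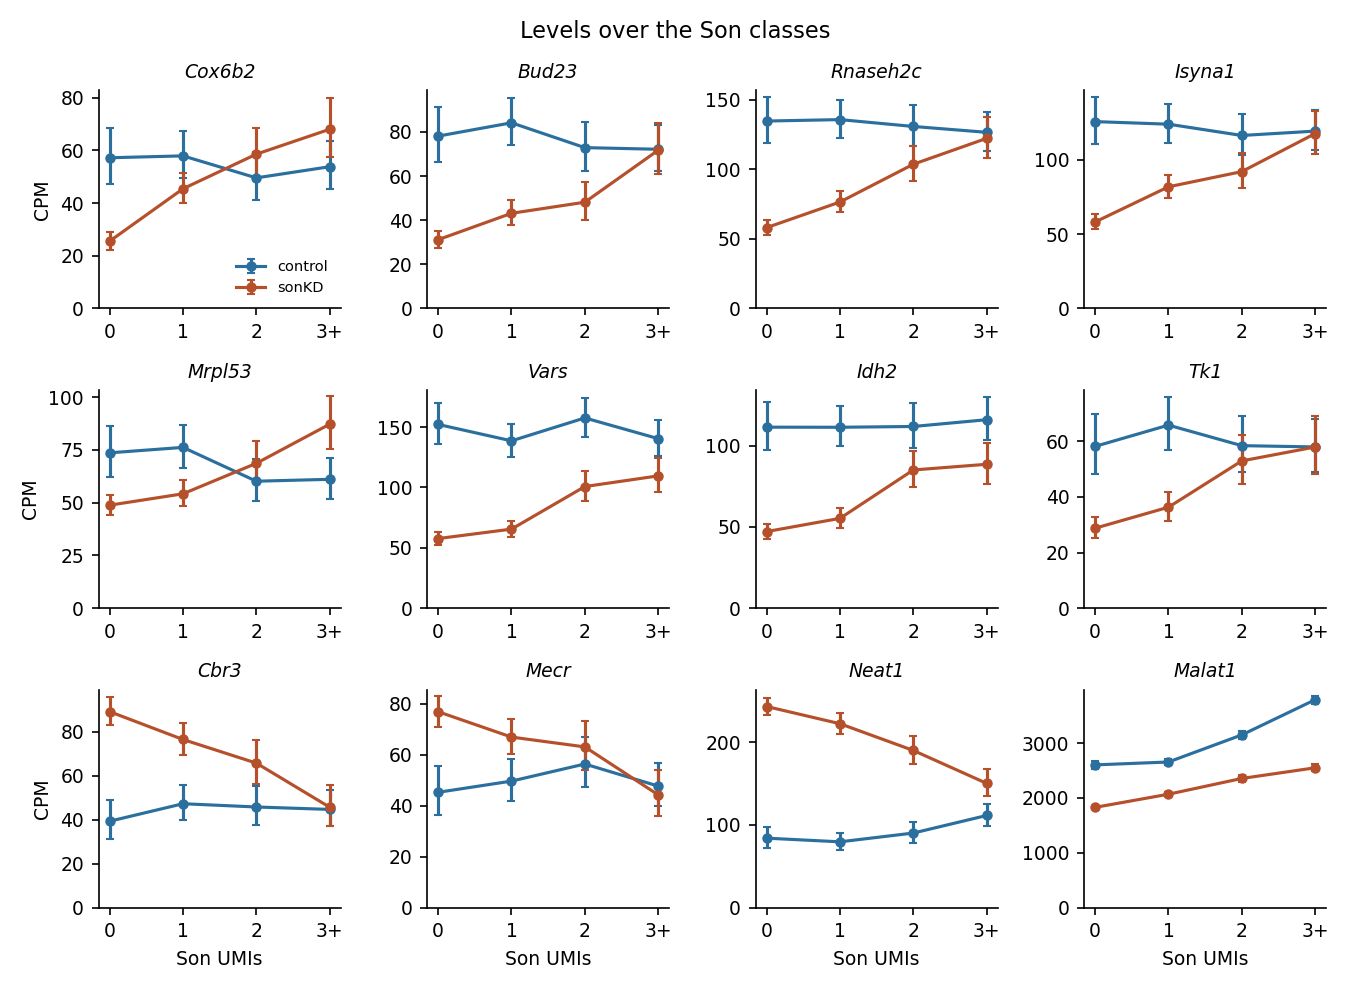
Level (CPM, with exact 95% Poisson intervals) of 12 genes in cells with 0, 1, 2 and 3 or more Son UMIs, in control (blue) and sonKD (orange). The first 8 genes go up with the Son class in sonKD alone, Cbr3, Mecr and Neat1 go down in sonKD alone, and Malat1 goes up in both libraries.

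The higher genes of sonKD were fewer and differed less. Cbr3, a carbonyl reductase on chromosome 16 from 93683215 to 93690990, was at 89.0, 76.4, 65.7 and 45.7 CPM from Son-negative to Son-high cells in sonKD. In control it was between 39.3 and 47.2 CPM in every class. The ratio was 0.96 (0.66 to 1.28) in sonKD, 1.00 (0.50 to 1.54) in its held-out UMIs and -0.18 (-0.61 to 0.24) in control. Mecr, a reductase of mitochondrial fatty acid synthesis, was at 76.8 CPM in Son-negative and 44.3 in Son-high sonKD cells, with ratios of 0.79 (0.49 to 1.12) in sonKD and -0.08 in control. Ino80e, of the INO80 chromatin remodeller, had 0.73 in sonKD, but its held-out ratio was 0.28 (-0.19 to 0.77).

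Neat1, the long noncoding RNA on which paraspeckles form, lies on chromosome 19 from 5824708 to 5845478 on the minus strand. In sonKD it was at 243 CPM in Son-negative cells, 222 with 1 Son UMI, 190 with 2 and 150 in Son-high cells. In control it was at 84.1, 79.7, 90.3 and 111 CPM. The sonKD library was higher in every class, and by a wider margin in the cells with less Son. The ratio was 0.69 (0.52 to 0.87) in sonKD and -0.41 (-0.69 to -0.13) in control, and the held-out ratios were 0.79 (0.54 to 1.06) and -0.80 (-1.37 to -0.25). The ratio of sonKD minus that of control was 1.10 (0.77 to 1.43, counting error only). Neat1 too had been picked out on these samples for its library difference.

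Of the other genes with high intervals, Ctsd, a protease of lysosomes, had a sonKD ratio of 0.69 (0.43 to 0.96), Tmem208 0.57 (0.37 to 0.77) and Fabp3, a carrier of fatty acids, 0.53 (0.42 to 0.65). Apoe, a lipid carrier, had 0.43, Mt1, a metallothionein, 0.40 and Ftl1-ps1 0.41. In control these 6 genes had ratios of 0.23, 0.06, 0.23, 0.21, 0.23 and 0.10, all on the same side of 0 as in sonKD. Ftl1-ps1 is a copy of the ferritin light chain gene and shares 85.9% of its 3' end with Ftl1 and other copies, and Fabp3 shares 18.9% with Fabp3-ps1, so both values are uncertain. All 10 genes with the highest intervals had falling levels over the 4 sonKD classes, an order seen in 9.12% of measured genes. Here too the choice of the genes fixed the ends of the order. Ctsd, Fabp3, Apoe and Mt1 had the order in control as well.

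The held-out UMIs gave the same direction for most genes past 0.5. Of the 56 genes lower in Son-negative sonKD cells, 51 were also lower in the held-out UMIs, with a median of -0.45 against -0.58 in the UMIs that chose them and -0.02 over all genes. Of all genes 54.6% were below 0 there. Only 25 of the 56 were still lower by at least 0.5, against 2.38% of all genes. In control the same 56 genes had a median of -0.01, with 29 below and 27 above 0. All 11 higher genes were higher in the held-out UMIs, with a median of 0.56. By at least 0.5, 7 of the 11 were higher there, beside 43 of all 3280 genes. Their control median was -0.08 in the thinned UMIs and 0.05 in the held-out ones, where 8 were above and 3 below 0. Of the 74 genes lower in Son-negative control cells, 63 were lower in the held-out UMIs of control, with a median of -0.35, where 53.4% of all genes were below 0. Only 24 of the 74 were still lower by at least 0.5 there, against 7.84% of all genes. In sonKD 66 of these 74 were below 0, against 57.7% of all genes, with a median of -0.17, so they leaned the same way in both libraries.

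The genes lower in sonKD were of unlike structure, a split made after their values were seen. The 645 measured genes with the shortest introns, of a median up to 562.5 bases, held 29 of the 56. These were 4.50% of the 645 genes, against 1.71% of all genes measured, and 0 of the 645 were lower by 0.5 in control. In the held-out UMIs 30 of the 645 genes were lower by 0.5 in sonKD (4.65%, against 2.38% of all genes) and 12 in control (1.86%, against 7.84% of all genes). As a whole the 645 genes had a median ratio of -0.02 in sonKD and 0.09 in control, so most of them were not among the lower genes. The 656 genes with the longest span, from 76131 bases, held another 17, which is 2.59% of them. Only 10 of the 56 were in neither group and 0 were in both. The 656 genes with the highest GC content, from 54.2%, held 27 of the 56, which is 4.12% of them. In control 4 of these 656 were lower by 0.5 (0.61%). In the held-out UMIs 24 of them were lower by 0.5 in each library (3.66%). Short introns and high GC content were not separated, and which of them went with the lower genes was not tested.

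The 29 genes with short introns had a median intron length of 186 bases, a median span of 6938 bases and a median GC content of 56.2%, against 1416.25 bases, 24436.5 bases and 48.6% over all measured genes. Their sonKD ratios had a median of -0.62, and 28 of the 29 were below 0 in the held-out UMIs, with a median of -0.58. In control their median was 0.09, with 22 above and 7 below 0. All 645 short-intron genes had a control median of 0.09 too, and 43.9% of all measured genes were above 0 in control. Besides Cox6b2, Rnaseh2c, Isyna1, Vars, Idh2 and Mrpl53 they included Qars, the glutaminyl tRNA synthetase, at -0.64 in sonKD and 0.12 in control, Nop56, of the particles that methylate ribosomal RNA, at -0.62 and -0.07, and Galk1, galactokinase, at -0.63 and 0.22. The RNA helicase Ddx41 was at -0.68 and -0.00, the ubiquitin ligase Stub1 at -0.62 and 0.34, and Fkbp8 at -0.50 and 0.28. Pltp was the exception in the held-out UMIs, at 0.39 after -0.61 in the thinned ones. All of these except those among the 10 lowest were named after their values were seen.

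The 17 genes with a long span went the same way in both libraries. Their median ratio was -0.55 in sonKD and -0.39 in control, where 15 of the 17 were below 0. All 656 long-span genes had medians of -0.15 in sonKD and -0.27 in control, so long genes as a whole leaned this way. In the held-out UMIs of sonKD the median of the 17 was -0.27, with 14 of the 17 below 0, and that of all 656 was -0.12. They included Nfib, a transcription factor, at -0.55 in sonKD and -0.53 in control, Srgap2 at -0.55 and -0.51, Prex2 at -0.85 and -0.48, Arid1b, of the BAF chromatin remodeller, at -0.54 and -0.39, and Med13l, of the Mediator complex, at -0.52 and -0.27. Held-out ratios in sonKD were -0.53 for Nfib, -0.45 for Srgap2, 0.06 for Prex2, -0.10 for Arid1b and -0.32 for Med13l. These 5 were named after their values were seen. Of the 74 genes lower in control, 51 were among the 656 longest by span and 0 among the 645 with the shortest introns. The 51 were 7.77% of the 656, against 2.26% of all genes measured. Across the 3280 genes the ratio went with span by a Spearman coefficient of -0.38 in sonKD and -0.62 in control, where genes share libraries, cells and depth and are not independent.

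Malat1 was lower in Son-negative cells of both libraries, as was the median of the long-span genes. When the class sums were made equal over tertiles of Malat1 UMIs, the long-span genes lower by 0.5 went from 17 to 2 in sonKD and from 51 to 9 in control, and the short-intron genes from 29 to 27 in sonKD and from 0 to 1 in control. With TMM factors 17 short-intron genes and 1 long-span gene were lower by 0.5 in sonKD, and 0 and 24 in control. These are counts past a cut. The 17 long-span genes had a sonKD median of -0.55, nearer to it than the -0.62 of the 29 short-intron genes. The part of Malat1 in these ratios was not tested.

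**Figure D4:**
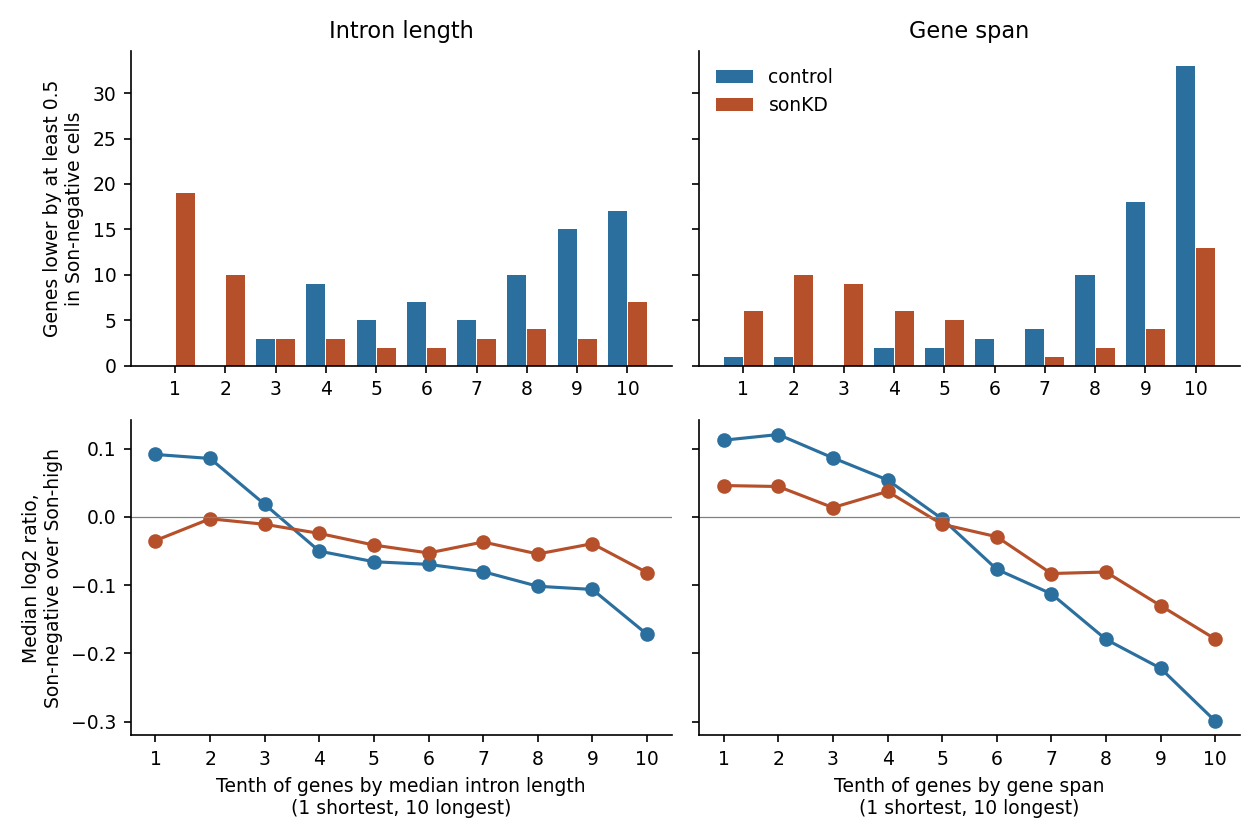
Top, number of genes lower by at least 0.5 (log2) in Son-negative cells in each of 10 groups of like size, from the shortest to the longest median intron (left) and gene span (right), for control (blue) and sonKD (orange). Bottom, median log2 ratio of each group, where the 2 groups with the shortest introns hold 19 and 10 lower genes in sonKD and 0 in control.

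The held-out UMIs were also set against all control cells, with each sonKD class on its own. The median of the 29 short-intron genes was -0.71 in Son-negative sonKD cells, -0.60 with 1 Son UMI, -0.37 with 2 and -0.18 in Son-high cells. The medians of all measured genes were -0.11, -0.10, -0.09 and -0.06. These genes were chosen as lower in Son-negative than in Son-high cells of the same library, so the order of their medians follows in part from the choice and is a description. In Son-high cells 23 of the 29 were below 0, beside 2006 of all 3280 measured genes. For the 11 higher genes the medians were 0.27, 0.17, 0.10 and -0.24.

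**Figure D5:**
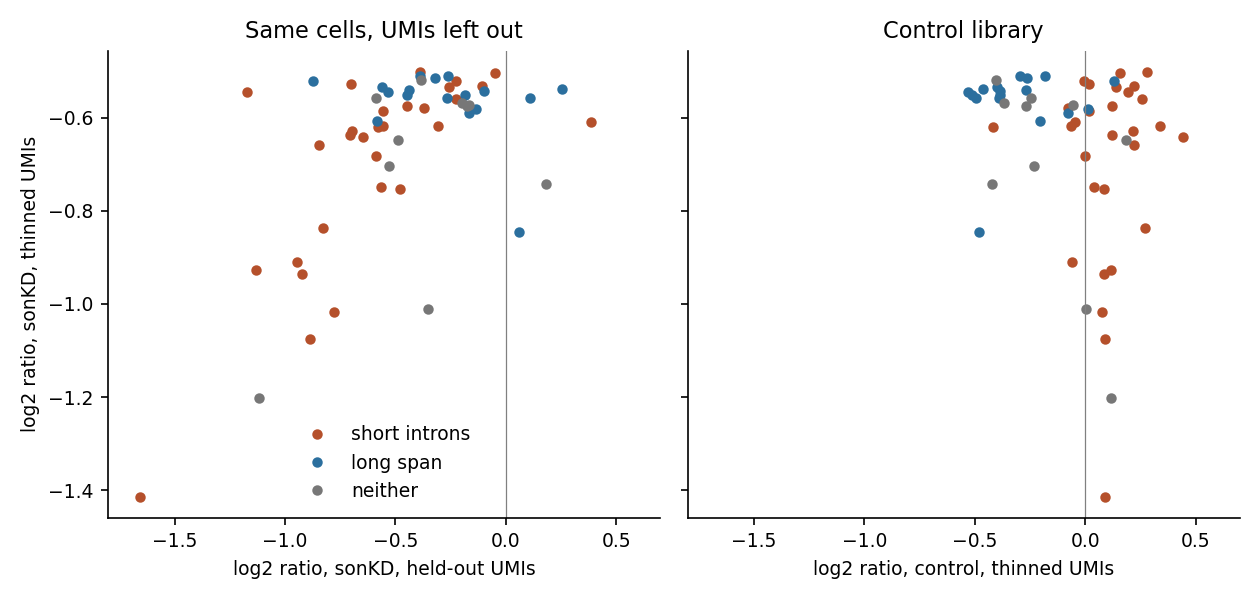
The 56 genes lower by at least 0.5 in Son-negative sonKD cells, with the log2 ratio in thinned UMIs on the vertical axis against that in held-out UMIs of the same cells (left) and in thinned UMIs of control (right). On the left 51 of 56 genes lie below 0, while on the right short-intron genes (orange) have a median of 0.09 and long-span genes (blue) of -0.39.

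In sonKD 57.7% of measured genes were lower and 42.3% higher in Son-negative cells by any size, and in control 56.1% and 43.9%, against which the lists are read. Of 26 measured speckle protein genes 19 were lower and 7 higher in Son-negative sonKD cells, with a median of -0.10, and 23 were lower and 3 higher in control, with a median of -0.17. The median of all genes was -0.03 and -0.04. The sonKD median was 0.01 with TMM factors, so its sign rests on the scaling. Cdk13, a kinase of transcription, was the 1 member past 0.5 in sonKD, at -0.53 (-0.78 to -0.28), and was at -0.40 in control, where 2 other members were past it. Ddx39b, an RNA helicase that works in splicing and export, was at 138 CPM in Son-negative and 194 in Son-high sonKD cells and at 221 and 183 in control, so its ratios of -0.49 and 0.27 had opposite signs. Srrm2, the other scaffold of speckles, went the other way, from 821 to 698 CPM in sonKD (0.23, 0.15 to 0.31) and from 757 to 862 in control (-0.19, -0.28 to -0.09). Its held-out ratios were 0.09 (-0.03 to 0.21) and -0.08 (-0.26 to 0.10).

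Of 11 measured SR splicing factor genes 10 were lower in Son-negative sonKD cells, with a median of -0.16, and 9 in control, with a median of -0.07, and none was past 0.5 in either library. The sonKD median was 0.01 in the held-out UMIs. Srsf5 was at -0.29 in sonKD and -0.20 in control, and Srsf7 at 0.13 and -0.04. Of 11 paraspeckle protein genes 9 were lower in sonKD and 11 in control, with medians of -0.09 and -0.13. Pspc1, which binds Neat1, was at -0.36 (-0.63 to -0.08) in sonKD and -0.09 in control, so it had the opposite sign to Neat1 in sonKD.

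Of 11 measured nuclear long noncoding RNAs, Neat1 and Malat1 among them, 7 were lower in Son-negative sonKD cells and 10 in control, with medians of -0.24 and -0.40. Malat1 was at 1829, 2068, 2355 and 2549 CPM over the sonKD classes and at 2602, 2655, 3148 and 3788 CPM in control. Its ratios of -0.48 (-0.52 to -0.43) and -0.54 (-0.59 to -0.49) were alike, so this RNA went with the Son count also where no siRNA against Son was given. Ribosomal protein genes went the other way in both, 64 of 78 being higher in Son-negative sonKD cells and 72 of 78 in control, with medians of 0.07 and 0.12. The 12 measured genes of the mitochondrial genome had medians of 0.04 and -0.07.

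Of 23 measured genes of naive pluripotency, 15 were lower in sonKD and 13 in control, with medians of -0.05 and -0.06, and none was past 0.5. Pou5f1 was at 920 CPM in both classes of sonKD, a ratio of 0.00 (-0.07 to 0.07), and at 0.14 (0.06 to 0.22) in control. Sox2 was at -0.05 (-0.17 to 0.07) and -0.14 (-0.29 to 0.01). Nanog was at 145 and 182 CPM in sonKD, a ratio of -0.33 (-0.49 to -0.16), and at 169 and 190 CPM in control, a ratio of -0.17 (-0.37 to 0.03). Fgf4, a signal made by naive cells, was at -0.43 and -0.27, and Spp1, a secreted adhesion protein, at 0.38 and 0.25. The 3 measured genes of the formative and primed list, with Etv5 and Tcf15 among them, had medians of -0.07 and -0.05.

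Lists of stress and growth gave small medians. Of 8 measured p53 targets 2 were higher and 6 lower in sonKD, with a median of -0.07, and 5 were higher and 3 lower in control, with a median of 0.05. A second random draw gave a sonKD median of 0.07. Aen and Sfn, the 2 that were higher in sonKD, were at 0.43 and 0.39 there and at 0.37 and -0.05 in control. Their held-out ratios in sonKD were 0.23 (-0.14 to 0.61) and 0.22 (-0.22 to 0.68). The 16 measured genes of the integrated stress response had -0.05 and 0.04, with Shmt2 at -0.38 and 0.02 and Slc3a2 at -0.22 and 0.03. The 9 immediate early and heat shock genes had 0.02 and 0.01. The 37 S phase genes had -0.06 and -0.03, with Uhrf1, which keeps DNA methylation through replication, at -0.44 (-0.63 to -0.24) in sonKD and 0.15 in control. Of 46 G2/M genes 36 were lower in sonKD, with a median of -0.16, and 28 in control, with a median of -0.05. Psrc1, which binds spindle microtubules, was at -0.54 in sonKD and 0.19 in control. Nusap1, of the spindle, was at -0.49 in sonKD and had a held-out ratio of 0.08 (-0.24 to 0.41).

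Among 13 measured genes named in earlier work on SON knockdown, 7 were lower in sonKD and 9 in control, with medians of -0.05 and -0.08, and Idh2 was the 1 member past 0.5. Atp5d, of the mitochondrial ATP synthase, was at 318 CPM in Son-negative and 402 in Son-high sonKD cells (-0.34, -0.45 to -0.23) and at 495 and 446 in control (0.15, 0.02 to 0.27). Of the 10 measured genes picked out for their library difference, 3 were past 0.5 in sonKD, with Vars and Idh2 lower and Neat1 higher. Uhrf1 is given above. Hist1h2ap was at 0.28 in sonKD and 0.33 in control, Rps27 at 0.13 and 0.30, Rpl9 at 0.04 and -0.01, and Rps2 at 0.03 and -0.03. These 4 genes have near copies elsewhere in the genome and are uncertain.

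Of 4 measured genes within the neighbourhood of Son 3 were higher in Son-negative sonKD cells and 3 in control, with medians of 0.09 and 0.14. Gart, next to Son, was at 161 CPM in Son-negative and 157 in Son-high sonKD cells, a ratio of 0.04 (-0.14 to 0.21), and at 0.08 in control. Cryzl1 was at 0.14 (-0.12 to 0.41) and 0.20. Itsn1, which averaged 49.9 CPM and so was not among the measured genes, was at 0.11 (-0.23 to 0.46) and -0.41. The held-out ratios of Gart were -0.22 (-0.47 to 0.03) and -0.59 (-0.97 to -0.21), and in sonKD those of Cryzl1 and Itsn1 were -0.16 and -0.32, so the signs of these 3 genes were not stable. Donson, which overlaps Son on the opposite strand, was at 16.3 and 16.4 CPM in the sonKD classes, a ratio of -0.01 (-0.55 to 0.56), under the minimum of 50 CPM.

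Markers of other cell types were low in both classes. The mesoderm and primitive streak list summed to 45.5 CPM in Son-negative and 90.0 in Son-high sonKD cells, a ratio of -0.98 (-1.24 to -0.73), and to 97.0 and 70.6 CPM in control (0.46, 0.16 to 0.76). Lefty1 and Lefty2, inhibitors of Nodal signalling that stem cells also make, gave most of the difference, with 9.90 and 26.9 CPM for Lefty1 and 8.71 and 29.7 CPM for Lefty2 in sonKD, while T, Evx1 and Cer1 were at 0 UMIs there. Primitive endoderm genes summed to 173 and 184 CPM in sonKD and to 225 and 333 in control, of which Lamc1, a laminin chain, gave 104 and 117 in sonKD and 114 and 172 in control. Trophectoderm genes summed to 129 and 123 CPM in sonKD and to 96.5 and 95.4 in control. Neuroectoderm genes summed to 96.7 and 123 CPM in sonKD and to 137 and 152 in control, with Ncam1 at -0.44 and -0.45 and with Neurog2 and Dcx at 0 UMIs. Fibroblast genes summed to 367 and 375 CPM in sonKD and to 426 and 422 in control, nearly all from Fn1 and Vim, with Col1a2, Col3a1, Dcn, Lum and Postn at 0 UMIs in the classes compared. Of 15 genes of 2C-like cells 13 were at 0 UMIs in each library. The part of these markers in the gene ratios was not tested.

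In control the extreme genes were others. Ptov1 was at 121 CPM in Son-negative and 72.5 in Son-high control cells, a ratio of 0.74 (0.46 to 1.02), and at 54.3 and 76.3 CPM in sonKD, a ratio of -0.49 (-0.75 to -0.23). Its held-out ratio in control was 0.11 (-0.41 to 0.62). Cenpw, of the centromere, was at 0.68, Eef1e1 at 0.62, Pcolce at 0.59 and Mrpl13 at 0.49 in control, and between -0.19 and 0.01 in sonKD. Their held-out ratios in control all had intervals that held 0. These were 0.28 for Cenpw (-0.47 to 1.02), 0.14 for Eef1e1 (-0.53 to 0.79), 0.12 for Pcolce (-0.47 to 0.70) and -0.12 for Mrpl13 (-0.54 to 0.30). In sonKD the held-out ratio was 0.48 (0.06 to 0.93) for Pcolce and between -0.13 and -0.12 for Cenpw, Eef1e1 and Mrpl13. At the low end Robo1, a receptor of axon guidance, was at 44.8 CPM in Son-negative and 83.2 in Son-high control cells (-0.89, -1.26 to -0.53) and at 49.4 and 69.4 CPM in sonKD (-0.49, -0.76 to -0.21). Nup107, of the nuclear pore, was at -0.79 and Tcf4 at -0.69 in control, and at -0.23 and -0.01 in sonKD. In the held-out UMIs Nup107 was at -0.15 (-0.81 to 0.50) in control and at -0.57 (-0.98 to -0.16) in sonKD. Its lower ratio was thus in sonKD there. Held-out Tcf4 was at -0.34 (-0.84 to 0.15) in control and -0.07 in sonKD, and Robo1 at -0.79 (-1.50 to -0.12) and -0.48 (-0.92 to -0.03).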

How the data were processed

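Transcripts were counted in single cells of 1 control and 1 sonKD sample, grouped by their titles. Each deposited file gives the UMI counts of a library, not normalized, as the authors made them with Cell Ranger 7.1.0, per the file headers. The build mm10 is named in the submitters' processing notes. Which annotation was counted, whether strand was used and how intronic reads were handled is not given in the sources used here. Gene positions and structures come from GENCODE M21 on GRCm38 (the longest coding transcript of a gene), in which 32235 of 32285 listed identifiers and all 3280 measured genes were found. 

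Cells were filtered and thinned as stated above, without replacement. Doublets were not called, and leaving out the deepest 5% of barcodes was an alternative. Class sums were scaled to CPM. Intervals are exact Poisson for levels, exact binomial for shares and, for ratios, exact conditional binomial, with counts under 3 set to 3 in ratios. UMIs mark molecules, but the cells of a class share 1 culture and 1 library. Genes were named by a rule, of which some are not reported here: Son, 4 neighbours, 6 genes whatever their change, the 10 highest and 10 lowest interval bounds in sonKD, the 5 and 5 in control, 2 members of each list, and the genes of large library difference, which were picked on these samples. The members and lists were chosen with earlier results of these data known. Python 3.11.15, numpy 2.4.6, scipy 1.17.1, pandas 2.3.3 and matplotlib 3.10.9 were used, with edgeR 4.0.16 in R 4.3.3 for TMM factors alone. The ratios and the held-out reading were tested on simulated data. There the simulated Son rates did not depend on depth and the class sums held counting error only. The weight of deeper cells and the spread between cells were therefore not examined. Alternatives were other random draws, filters, class limits, depths, scalings and strata.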

Additional observations from a re-analysis of the deposited data

Results flagged for a closer look

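For 5 of the genes chosen by the naming rule and reported here, the ratio of Son-negative over Son-high cells lay on opposite sides of 0 in the libraries, with both counting intervals clear of 0. With 1 library per group, the difference was not tested. The share of all measured genes that met this condition was not counted. The log2 ratio of sonKD minus that of control was 1.10 for Neat1 (0.69 in sonKD and -0.41 in control) and 0.42 for Srrm2 (0.23 and -0.19). It was -0.49 for Atp5d (-0.34 and 0.15), -0.76 for Ddx39b (-0.49 and 0.27) and -1.23 for Ptov1 (-0.49 and 0.74). In the held-out UMIs of control only Neat1 of the 5 had an interval clear of 0. The held-out control ratio was -0.08 for Srrm2 (-0.26 to 0.10) and 0.14 for Atp5d (-0.09 to 0.37). For Ddx39b it was 0.17 (-0.17 to 0.51) and for Ptov1 0.11 (-0.41 to 0.62). The control ratio of Neat1 ran from -0.83 to -0.11 over 12 alternatives and was nearest to 0 over tertiles of Malat1 UMIs. Of the genes named after their values were seen, 4 met the same condition, with differences of -1.08 for Rnaseh2a, -0.95 for Stub1, -0.78 for Fkbp8 and -0.84 for Galk1.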

How the results depend on the processing

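No paired analysis was possible because each group held 1 sample. In all, 15 of 18 values of held-out Son, 26 of 60 gene counts, 15 of 24 short-intron gene counts, 305 of 336 list medians and 1483 of 1656 values of named genes stayed close to those reported, and the cause of a move was not tested. Of the 20 genes with the highest and lowest intervals in sonKD, the 19 reported here kept their sonKD sign under the 12 alternatives run on them. They were chosen for extreme intervals in these same cells, so a kept sign was in part fixed by the choice. Under other random draws 85.9% and 84.8% of Son-negative sonKD cells kept their class, and 74.4% and 73.1% of Son-high ones. The held-out Son ratio was -0.92 in sonKD and -1.11 in control at 15000 UMIs, and -1.13 in control over tertiles of raw depth, where the gap was no longer wider in sonKD at 15000 UMIs.

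Genes higher and lower by 0.5 in sonKD, then in control, were 11, 56, 10 and 74 as reported, and the counts that moved follow. With Son-high from 2 UMIs they were 3, 30, 3 and 25. From 4 UMIs, 35 and 126 in sonKD and 23 higher in control. With TMM factors they were 30, 23, 24 and 32. With genes from 100 CPM they were 3, 20, 0 and 14, from 10 CPM 174, 528, 176 and 728, and with no filter beyond 3 UMIs 892, 2903, 1059 and 2013. In held-out UMIs they were 43 higher in sonKD and 84 and 257 in control. At 15000 UMIs, where control had 17 Son-negative cells, they were 19 higher in sonKD and 131 and 489 in control. Over tertiles of Malat1 the lower genes were 36 and 17. The second random draw gave 18 higher in sonKD, the third gave 49 lower in control, and leaving ribosomal protein and mitochondrial genes out of the CPM gave 16 higher in control.

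Lower short-intron genes, 29 in sonKD and 0 in control as reported, were 19 with Son-high from 2 UMIs and 17 with TMM factors in sonKD. In control they were 3 and 1 in the other draws, 1 at the limit of 5% mitochondrial UMIs, 5 with Son-high from 4 UMIs, 35 at 15000 UMIs, 1 over tertiles of Malat1 and 12 in held-out UMIs. These alternatives were added after seeing the data.

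Among gene ratios whose interval was clear of 0 and list medians of at least 0.1 in size, the signs that turned were those of the sonKD medians of SR splicing factors in held-out UMIs (0.0065) and of speckle proteins with TMM factors (0.0098). At 15000 UMIs Nusap1 was at 0.11 in sonKD, and Ftl1-ps1 at -0.037, Fgf4 at 0.23 and Cdk13 at 0.30 in control. In held-out UMIs Nusap1 was at 0.081 in sonKD, and Aen at -0.43 and Mrpl13 at -0.12 in control. Sfn was at -0.013 in sonKD with Son-high from 4 UMIs, and Hspa8 at 0.032 in sonKD with TMM factors. Among ratios whose interval held 0 and smaller medians, 163 gene values and 27 list medians turned sign.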
